A study of Mus musculus with 3 samples.

Results

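Alveolar type 2 (AT2) cells were taken from dissociated lungs of irradiated mice profiled by droplet single-cell RNA sequencing. A cell was counted as AT2 when at least 4 of the 8 genes Sftpc, Sftpa1, Sftpb, Slc34a2, Lamp3, Napsa, Cxcl15 and Etv5 had a value above 0 and none of Ptprc, Foxj1, Scgb1a1, Pecam1 and Col1a1 did. This rule selected 1003 of 19622 cells. The cells were thus chosen by measured values of these 13 genes, whose levels are given below as a description only.

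The lungs came from female wild-type C57BL/6J mice 5 months after 13 Gy to the thorax, and each of the 3 conditions is 1 library from 1 mouse. CONV lungs received the dose at a conventional dose rate with no drug. CONV AsiDNA lungs received the same conventional irradiation on the last of 3 daily injections of AsiDNA, a short double-stranded DNA molecule that acts as a decoy for DNA repair signalling, at 100 mg/kg on the first 2 days and 200 mg/kg on the day of irradiation. FLASH lungs received the dose at an ultra-high dose rate with no drug. All 3 conditions were irradiated, and unirradiated lungs were not analysed here. No test between conditions can be made from single mice, so a difference below is a difference between these libraries, and differences between mice, lung preparations and treatments cannot be told apart.

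AT2 cells are the cuboidal cells of the alveolus that make, store in lamellar bodies and secrete surfactant, the mixture of lipids and surfactant proteins that keeps air spaces open. They also act as progenitors that renew themselves and give rise to the flat alveolar type 1 cells after injury, passing through a transitional state. In inflamed lungs they secrete host-defence and acute phase proteins, which the liver otherwise supplies to the blood.

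The 1003 AT2 cells were split as 293 of 6372 CONV cells, 329 of 6983 CONV AsiDNA cells and 381 of 6267 FLASH cells. The CONV share was 4.60% of all cells, with an exact Clopper-Pearson 95% interval of 4.10 to 5.14%. The CONV AsiDNA share was 4.71% (4.23 to 5.23%) and the FLASH share 6.08% (5.50 to 6.70%). From here on, 3 values given together stand in the order CONV, CONV AsiDNA, FLASH. The FLASH interval did not overlap the other two, but these intervals cover the sampling of cells only and not the spread between mice or dissociations. Of cells without a Ptprc value, AT2 cells made up 14.3%, 14.5% and 18.3%. This denominator leaves out leukocytes with a Ptprc value, while any leukocyte with Ptprc listed at 0 stays in it. The selection had few borderline cells. All 8 genes were above 0 in 93.2%, 91.2% and 94.5% of the AT2 cells, while exactly 4 were above 0 in 3, 2 and 0 of them. Just outside the rule, exactly 3 genes were above 0 in 25, 66 and 16 cells, but a minimum of 3 genes gave 295, 329 and 381 AT2 cells, since nearly all of those cells also had an exclusion gene. Those cells had a median summed value of 37, 40.5 and 43 adjusted counts over the 8 genes, against 1200, 1271 and 1378 in the AT2 cells. Among cells with at least 4 genes, an exclusion gene removed 0, 1 and 2.

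Levels are given as adjusted CPM, the summed adjusted counts of a gene over the AT2 cells of a library per 1000000 of all their adjusted counts. An adjusted count is a whole number recovered from the deposited value, and is called adjusted because the totals of AT2 cells span only 3824 to 6715. The median AT2 cell held 4833, 4814 and 4798 adjusted counts. A log2 ratio compares adjusted CPM after 10 was added to both. It was taken for 6223 genes with a mean of at least 10 adjusted CPM and a value above 0 in every library, and a further 39 genes were listed at 0 in at least 1 library. No AT2 cell barcode was shared between libraries.

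The identity of the cells was well marked outside the genes of the rule. Of 22 further AT2 genes, including Abca3, the lipid pump of lamellar bodies, and Sftpd, a secreted collectin, all 22 were measured. In CONV 4 of them (Lyz1, Fabp5, Acoxl and Pgc) were at least 2-fold lower than in CONV AsiDNA and 3 (Lyz1, Fabp5 and Acoxl) than in FLASH, and 0 were higher, where 2.12% and 1.72% of all genes were lower. Abca3 stood at 1246, 1138 and 1180 adjusted CPM, against 10.0 to 18.0 in all other cells. Nkx2-1, the transcription factor of lung epithelium, stood at 532, 526 and 474 adjusted CPM. Markers of leukocytes, stroma and ciliated cells were listed at or near 0, while the AT1 marker Ager was not. A listed 0 does not show absence in these tables, since Ftl1 and mt-Co3, which nearly all cells use, were also listed at 0 in the AT2 cells of CONV. Ager stood at 1386, 1164 and 1085 adjusted CPM in AT2 cells and was above 0 in 97.3%, 89.4% and 91.1% of them, with 8865, 8471 and 15556 adjusted CPM in the AT1 gate. That gate took cells outside the AT2 rule with at least 3 of Ager, Hopx, Aqp5, Rtkn2, Akap5, Clic5 and Pdpn above 0 and no Ptprc, so Ager is 1 of its own genes. The 11 B and T cell genes, 11 fibroblast and smooth muscle genes and 8 ciliated genes were listed at 0 in the AT2 cells of each library. The 15 macrophage genes, Chil3 and Spp1 among them, summed to 0, 118 and 65.5 adjusted CPM, where all other cells had 18850, 9281 and 8360. The 11 endothelial genes summed to 167, 177 and 146, from 1 gene, and the 7 neutrophil genes to 0, 0 and 1.64. The club cell gene Cyp2f2 was an exception, with 241 adjusted CPM in CONV, from 3.75% of its AT2 cells, and was listed at 0 in the others.

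Sftpc had the highest mean level in AT2 cells, and Sftpa1 and Sftpb were among the 10 highest genes. The rule used these genes to select the cells, so their levels are a description only. Sftpc, the lung-specific surfactant protein that the rule used, made up 173453, 183716 and 202607 adjusted CPM. Sftpa1 stood at 30556, 31719 and 30564 and Sftpb at 14079, 14052 and 14540 adjusted CPM. The other genes with the highest mean were Malat1, Lyz2, Scd1, Gm42418, Cxcl15, Sftpd and mt-Co1. Scd1, the desaturase that makes monounsaturated fatty acids for surfactant lipids, stood at 8680, 13609 and 15804 adjusted CPM. Lyz2, the lysozyme of macrophages and AT2 cells, stood at 26037, 33360 and 36029. Both values were lowest in CONV, by less than 2-fold. Across the 34 measured genes of surfactant lipid synthesis and transport the median log2 ratio of CONV was -0.0093 against CONV AsiDNA and -0.0026 against FLASH.

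The CONV library had more genes past 2-fold against either other library than those had against each other. In CONV over CONV AsiDNA 163 of 6223 genes were at least 2-fold higher (2.62%) and 132 at least 2-fold lower (2.12%). In CONV over FLASH 261 were higher (4.19%) and 107 lower (1.72%). In CONV AsiDNA over FLASH 30 were higher (0.482%) and 15 lower (0.241%). These 3 comparisons share libraries, so they are not independent of each other. The median log2 ratio of all 6223 genes was 0.05, 0.15 and 0.10 in the same order, and when each comparison was centred on its median the split in CONV over FLASH became 163 higher and 168 lower. A total without gate genes, mitochondrial genes, Gm42418 and AY036118 gave more lower genes in both comparisons of CONV, as printed at the end. Among the 2953 genes with a higher mean in AT2 cells than in all other cells, 92 were higher in CONV and 84 lower against CONV AsiDNA, and 153 and 65 against FLASH. The 2 genes farthest below both other libraries in CONV were the mitochondrial genes mt-Co2 and mt-Atp6, by 6.77 and 5.97 on the log2 scale for the smaller ratio, and the median mitochondrial share of AT2 cells was also lowest in CONV, at 1.10%, 2.40% and 4.85%. The part of RNA quality in the differences of CONV described from here on was not tested.

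Several secreted acute phase genes, among them Lcn2, Hp and Orm1, had their highest values in CONV. Of 35 acute phase and inflammatory genes, 19 were measured, with a median log2 ratio of CONV of 0.79 against CONV AsiDNA and 1.12 against FLASH, where all genes had 0.05 and 0.15. The list was chosen with earlier results of these data known, so its median and calls are a description and no support by themselves. In the first comparison 4 of 19 were at least 2-fold higher and 1 lower, where 2.62% and 2.12% of all genes were, and in the second 10 were higher and 1 lower, where 4.19% and 1.72% were. Retnla, a resistin-like secreted protein, was the lower gene in both, and its CONV value came from very few cells, as given below. Lcn2, the siderophore-binding lipocalin that withholds iron from bacteria, stood at 13677, 5033 and 3816 adjusted CPM. It was above 0 in 98.3%, 92.1% and 94.0% of AT2 cells, and the median cell held 49, 13 and 10 adjusted counts. Hp, haptoglobin, which binds free haemoglobin, stood at 2143, 924 and 741 adjusted CPM. Orm1, an acute phase orosomucoid, stood at 186, 15.8 and 18.0 and was above 0 in 32.8%, 6.38% and 5.25% of the AT2 cells.

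Genes best known from the liver followed, here chosen after their values were seen. Itih4, a plasma inhibitor heavy chain, stood at 2534, 713 and 739 adjusted CPM. Fgg, the fibrinogen gamma chain, stood at 428, 166 and 183 adjusted CPM, and Fga, the alpha chain, at 177, 81.3 and 51.3. Fgl1, a fibrinogen-like secreted protein, stood at 76.0, 15.1 and 12.01, Fetub, a fetuin, at 71.7, 8.82 and 9.28, and Orm3 at 35.9, 3.15 and 3.82. They were picked for being high in CONV, so their shared direction is no result. Over all other cells pooled, Itih4 did not exceed 5.06 adjusted CPM and Fgg, Fga and Fgl1 did not exceed 0.121. The AT1 gate of CONV had Itih4 at 21.9 adjusted CPM, and AT2 cells held 97.6%, 90.8% and 92.5% of all adjusted counts of Itih4 and 99.8%, 98.9% and 100% of those of Fgg. Lcn2 outside AT2 cells ran the other way, at 81.8, 160 and 195 adjusted CPM. Hp in all other cells was also lowest in CONV, at 297, 464 and 307 adjusted CPM. In cells with Ptprc Hp ran the other way, at 114, 140 and 164. The part of the RNA of these cells in the AT2 values of Lcn2 and Hp was not tested.

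The upstream bases of 3 secreted genes with their highest value in CONV are shown, so that their letters can be compared. They are RefSeq sequences of build GRCm38.p6, 250 bases before the annotated start, read 5′ to 3′ on the strand of the gene. Capitals mark letters that match TTCNNNGAA (STAT type), TTGCNNAA (C/EBP type) or GGGANNNNCC (kappaB type) on either strand. These letters occur in 7.02%, 9.56% and 17.6% of the same windows of all 32851 promoters. The Lcn2 window is at chr2:32387740-32387989 (minus strand), inside the longer gene model of GENCODE. The Itih4 window is at chr14:30886226-30886475 (plus) and the Fgg window at chr3:83007474-83007723 (plus).

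Lcn2: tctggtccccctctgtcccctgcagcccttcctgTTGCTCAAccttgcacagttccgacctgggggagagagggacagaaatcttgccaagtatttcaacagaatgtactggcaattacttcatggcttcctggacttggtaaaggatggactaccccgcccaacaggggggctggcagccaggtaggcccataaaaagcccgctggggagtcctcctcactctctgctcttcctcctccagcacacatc

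Itih4: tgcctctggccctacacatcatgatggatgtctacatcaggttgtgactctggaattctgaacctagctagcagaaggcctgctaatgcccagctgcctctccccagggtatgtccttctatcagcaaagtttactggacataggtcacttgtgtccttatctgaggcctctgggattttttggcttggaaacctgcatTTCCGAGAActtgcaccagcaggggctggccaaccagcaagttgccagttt

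Fgg: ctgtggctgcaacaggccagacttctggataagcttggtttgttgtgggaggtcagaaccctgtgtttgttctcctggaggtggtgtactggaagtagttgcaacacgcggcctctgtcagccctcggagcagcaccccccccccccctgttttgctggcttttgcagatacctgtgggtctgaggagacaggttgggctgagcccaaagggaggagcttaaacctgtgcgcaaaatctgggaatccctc

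The Lcn2 window held 1 C/EBP type match, 216 bases before the start, and the Itih4 window 1 STAT type match, 51 bases before the start. The Fgg window held none of the 3 motifs. A match describes letters and not binding. By GENCODE, also on GRCm38, the protein-coding genes Hp and Orm1 lie at chr8:109575128-109579172 (minus strand) and chr4:63344560-63348163 (plus strand).

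**Figure D1:**
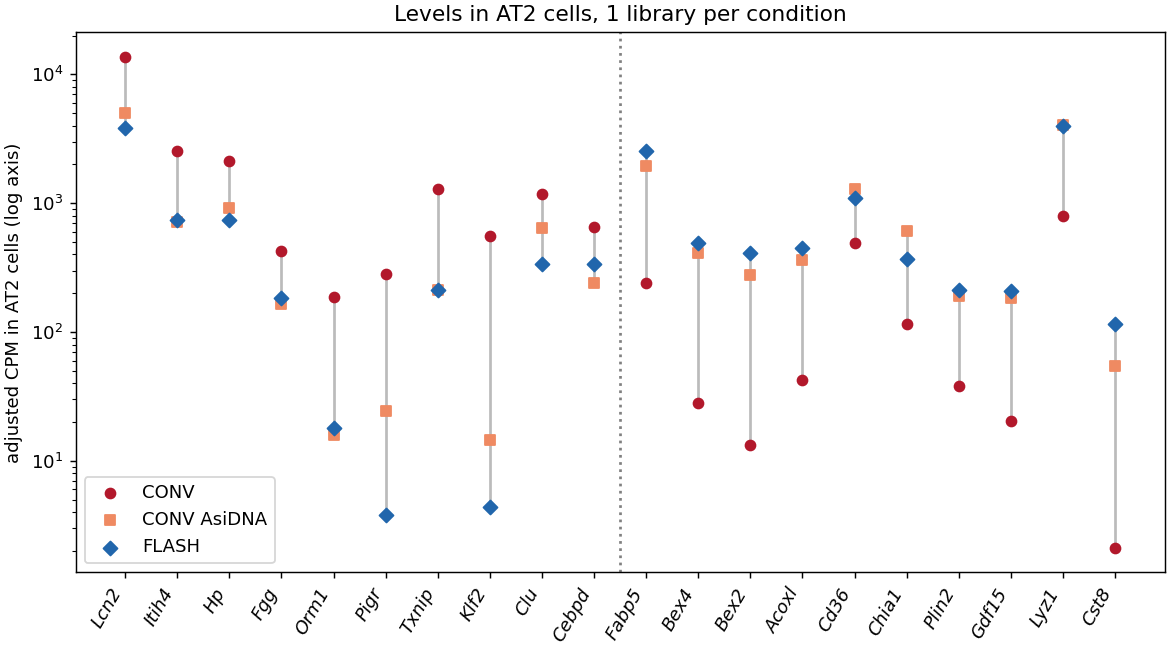
Levels of 20 genes in AT2 cells as adjusted CPM on a log axis, with 1 point for each library and grey lines joining the lowest and the highest. The 10 genes left of the dotted line have their highest point in CONV, such as Lcn2 at 13677, and the 10 on the right their lowest, such as Fabp5 at 238.

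Klf2, Txnip and Cebpd also had their highest AT2 value in CONV. Of 18 measured AT2 transcription factors and niche receptors 1 (Cebpd) was at least 2-fold higher and 2 (Foxa2 and Id2) lower in CONV than in CONV AsiDNA, with a median log2 ratio of 0.017, where 2.62% and 2.12% of all genes were. Against FLASH 2 (Elf5 and Erbb3) were higher and 0 lower, with a median of 0.39, where 4.19% and 1.72% of all genes were. Klf2, a Krueppel-like transcription factor, stood at 561, 14.5 and 4.37 adjusted CPM, and was above 0 in 59.4%, 1.82% and 0.262% of AT2 cells. Klf2 in all other cells ran in the opposite order, at 1103, 1511 and 1712 adjusted CPM, as did the immune gate, cells with Ptprc, at 958, 1689 and 1844, and the part of their RNA in the AT2 values was not tested. The club gate had Klf2 highest in CONV too, at 128, 0 and 16.5. Txnip, the thioredoxin-interacting protein that curbs glucose uptake, stood at 1280, 214 and 212 adjusted CPM. Its level in all other cells was 529, 408 and 475. Cebpd, a transcription factor of the acute phase, stood at 654, 241 and 338 adjusted CPM and was above 0 in 85.7%, 55.6% and 55.9% of AT2 cells.

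Pigr and Tspan1, which airway secretory cells also express, were among the 5 genes farthest above both other libraries in CONV. They reached the minimum mean of 50 adjusted CPM for this ranking only through their CONV values. The same holds for Klf2 and Orm1, which were also among these 5, so the ranking is a description only. Pigr, the receptor that carries immunoglobulin A across epithelia, stood at 283, 24.6 and 3.82 adjusted CPM. Tspan1, a tetraspanin, stood at 130, 13.2 and 8.74. The club gate, cells with Scgb1a1 and neither Ptprc nor Foxj1, held Pigr at 1729, 754 and 767 adjusted CPM. The CONV library also had the 3.75% of AT2 cells with Cyp2f2, and without those 11 cells the log2 ratios of Pigr and Tspan1 over both other libraries stayed past 2-fold.

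Bex2 and Bex4, brain-expressed X-linked adaptor genes, are protein-coding genes at chrX:136066564-136068236 (minus strand) and chrX:136138996-136140443 (plus strand) by GENCODE on GRCm38. Bex2 stood at 13.4, 279 and 412 adjusted CPM, and was above 0 in 3.07%, 38.9% and 53.02% of AT2 cells. Bex4 stood at 28.1, 410 and 488 adjusted CPM and was above 0 in 9.56%, 64.1% and 71.7%. The neighbours Bex1 and Tceal8, chosen after their values were seen, had the same order, with 0.703, 18.9 and 26.2 for Bex1 and 31.7, 107 and 124 for Tceal8. Over all other cells pooled, Bex2 stood at 1.29, 0.121 and 0 and Bex4 at 1.42, 0.644 and 0.418 adjusted CPM. Both were highest in CONV there, where the AT2 value was lowest, and the part of their RNA in the AT2 values was not tested. The highest values in a single gate were 12.2 for Bex2 in the club gate and 9.37 for Bex4 in the AT1 gate, both in CONV.

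The upstream bases of Bex2, at chrX:136068237-136068486 (minus strand), and of Bex4, at chrX:136138746-136138995 (plus strand), are given because these neighbours differed together, with the same capitals.

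Bex2: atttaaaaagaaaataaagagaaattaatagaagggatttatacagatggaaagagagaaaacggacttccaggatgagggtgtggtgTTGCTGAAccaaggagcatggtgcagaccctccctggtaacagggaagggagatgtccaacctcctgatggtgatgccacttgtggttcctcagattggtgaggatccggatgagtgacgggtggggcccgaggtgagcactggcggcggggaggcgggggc

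Bex4: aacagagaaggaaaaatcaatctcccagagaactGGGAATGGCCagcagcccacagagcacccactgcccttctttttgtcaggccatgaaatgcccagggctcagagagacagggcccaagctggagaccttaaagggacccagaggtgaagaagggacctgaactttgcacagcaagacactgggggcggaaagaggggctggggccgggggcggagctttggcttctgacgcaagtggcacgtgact

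The Bex2 window held 1 C/EBP type match, 162 bases before the start, and the Bex4 window 1 kappaB type match, 216 bases before it.

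Acoxl, an acyl-CoA oxidase-like gene, stood at 42.2, 364 and 447 adjusted CPM. In all other cells pooled it was highest in CONV, at 0.712, 0 and 0.0928, and the part of their RNA in the AT2 values was not tested. Cst8, a cystatin, stood at 2.11, 54.8 and 115 adjusted CPM and was listed at 0 in all other cells. Chia1, an acidic chitinase chosen after its values were seen, stood at 116, 604 and 371. Each was at least 2-fold lower in CONV than in both other libraries.

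Of the 34 lipid genes 3 were at least 2-fold lower in CONV in both comparisons and 0 were higher, where 2.12% and 1.72% of all genes were lower, and the list as a whole had a median near 0. Fabp5, a fatty acid binding protein, stood at 238, 1956 and 2549 adjusted CPM, and was above 0 in 14.3%, 86.3% and 88.7% of AT2 cells. Cd36, a fatty acid transporter, stood at 490, 1282 and 1105 adjusted CPM, and Plin2, which coats lipid droplets, at 38.0, 192 and 210. Fabp5 in all other cells ran the other way, at 797, 233 and 133 adjusted CPM, as did Plin2 at 312, 182 and 174, and the part of their RNA in the AT2 values was not tested. Cd36 in all other cells stayed between 182 and 214.

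Lyz1, the Paneth-type lysozyme, was carried by few cells. It was above 0 in 2.73%, 17.0% and 17.3% of AT2 cells, and where above 0 its median was 55, 79.5 and 81 adjusted counts. Its level was 790, 4067 and 3971 adjusted CPM. The share of carrying cells differed more than the median within them, though in CONV that median rested on 8 cells. Lyz1 in all other cells ran the other way, at 29.6, 4.59 and 6.64 adjusted CPM, and the part of their RNA in the AT2 values was not tested.

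**Figure D2:**
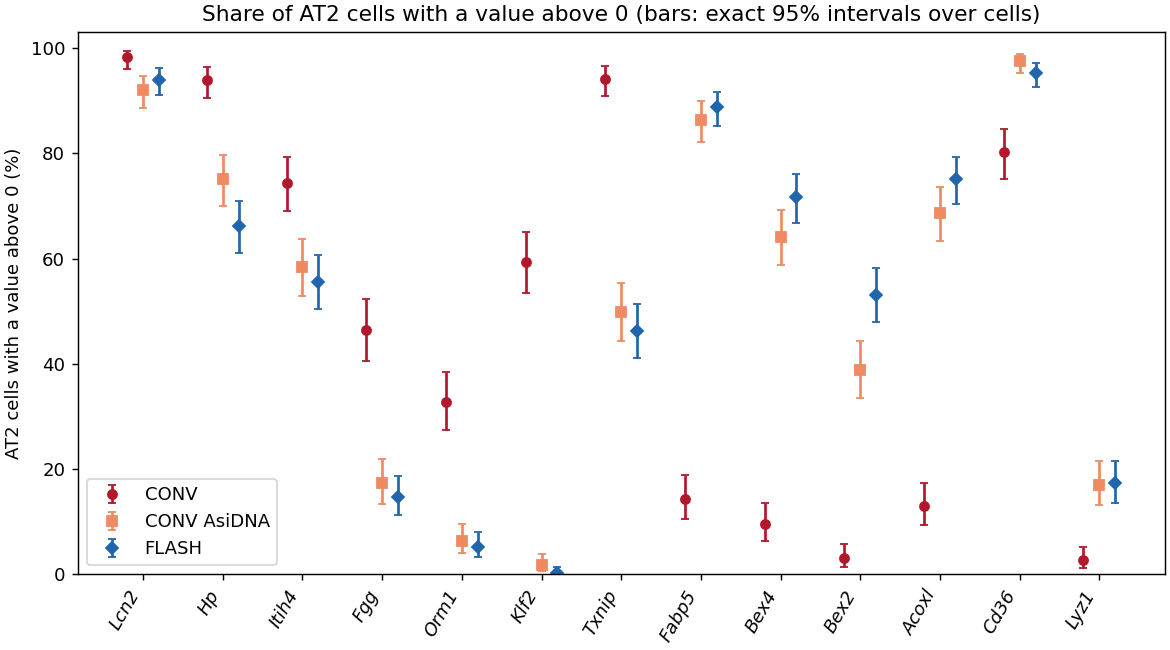
Percentage of AT2 cells with a value above 0 for 13 genes, with exact 95% Clopper-Pearson intervals over cells of 1 library each. Klf2 spans 59.4% in CONV to 0.262% in FLASH, and Fabp5 14.3% to 88.7%.

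Some of the genes that were highest in the AT2 cells of CONV were also highest in CONV in other epithelial gates, which leave out the AT2 cells, while the order of the other two libraries often differed. In the AT1 gate Txnip stood at 971, 374 and 555 adjusted CPM and Klf2 at 212, 53.4 and 115, although the share of cells with Klf2 there was highest in FLASH, at 14.1%, 10.8% and 16.5%. The AT2 gene Sftpd was also highest in CONV in that gate, at 1562, 577 and 201, as was Cd74, at 1427, 196 and 6.38. The part of AT2 RNA in the AT1 gate was not tested. Hp and Pigr in the AT1 gate were highest in CONV AsiDNA, Hp at 1577, 2986 and 998 and Pigr at 272, 394 and 344. In the club gate Txnip stood at 322, 44.4 and 182 and Cebpd at 350, 133 and 41.3. Orm1 in the ciliated gate stood at 103.4, 14.7 and 21.9, while Klf2 there was lowest in CONV, at 107, 149 and 272, and Txnip had no such order, at 1710.3, 1538 and 1813. Clu, a secreted chaperone, stood at 1187, 645 and 337 adjusted CPM in AT2 cells, at 1231, 595 and 258 in the AT1 gate and at 780.0, 492 and 391 in the club gate. In the ciliated gate Clu was highest in FLASH, at 77.2, 77.3 and 99.4. In the club gate Lcn2 was also highest in CONV, at 977 adjusted CPM, with 62.2 for CONV AsiDNA, and was listed at 0 for FLASH. Hp in the club gate had no such order, at 6362, 7626 and 5311 adjusted CPM, nor in the ciliated gate (Foxj1 without Ptprc), at 834, 1156 and 1217. Itih4 was listed at 0 in the club and ciliated gates of all 3 libraries. Fabp5 was listed at 0 in the AT1, club and ciliated gates. No test of a difference between cell types could be made with 1 library per condition.

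**Figure D3:**
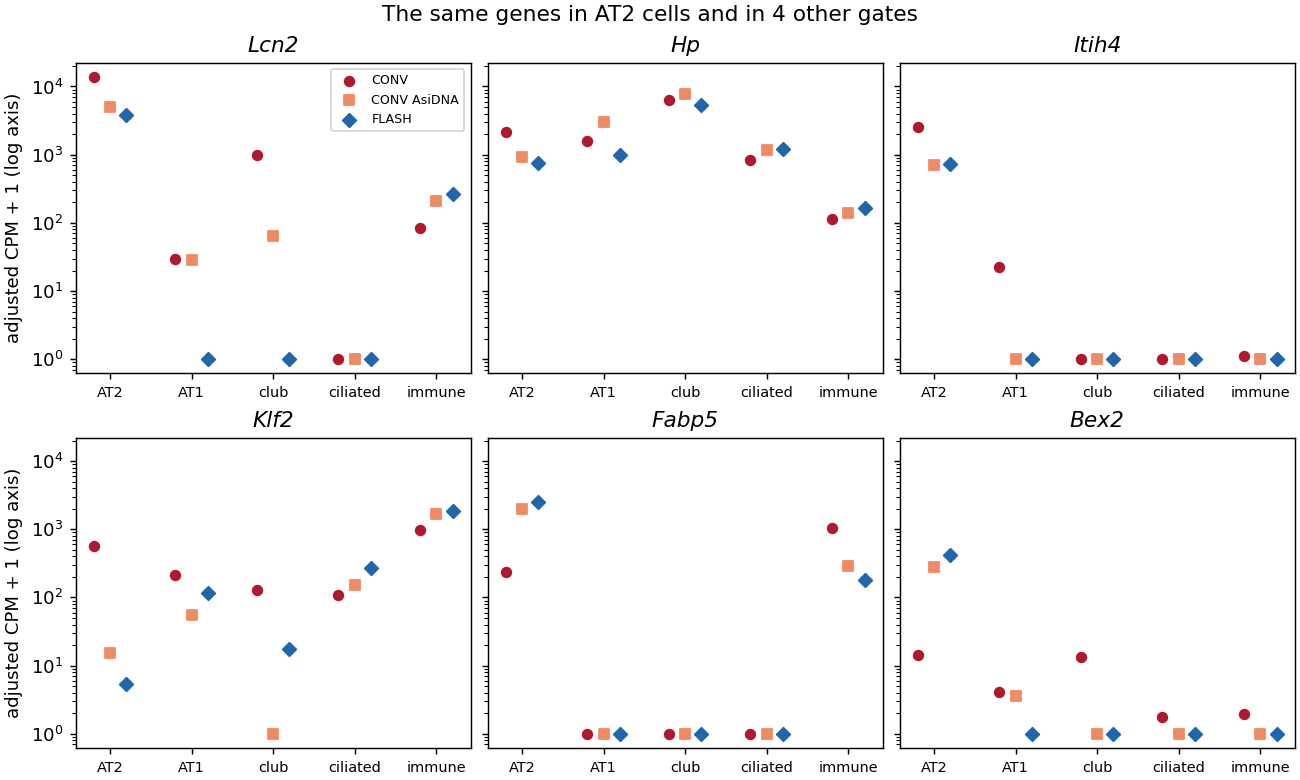
Adjusted CPM plus 1 on a log axis for 6 genes in AT2 cells and in 4 other gates of each library. Itih4 and Bex2 are highest in AT2 cells in every library, though Bex2 in CONV is at 13.4 there and at 12.2 in the club gate. In the immune gate, cells with Ptprc, the values of Lcn2, Hp, Klf2 and Fabp5 run in the opposite order to AT2 cells.

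Differences of the treatment-related lists were mixed. Of 35 p53 target genes 23 were measured, with a median log2 ratio of CONV of -0.23 against CONV AsiDNA and 0.07 against FLASH. In the first comparison 1 was at least 2-fold higher and 4 lower, and in the second 2 were higher and 2 lower. Of all genes, 2.62% were higher and 2.12% lower in the first and 4.19% and 1.72% in the second. Cdkn1a, the p21 cell cycle inhibitor, stood at 491, 579 and 466 adjusted CPM, although it was above 0 in 68.3%, 52.3% and 43.3% of cells. Gdf15, a stress cytokine, stood at 20.4, 183 and 208, and Phlda3, an Akt inhibitor induced by p53, at 11.3, 80.7 and 55.7. Sesn2, a stress-induced regulator of growth signalling, went the other way at 108, 40.97 and 42.05. In all other cells Gdf15 was highest in CONV, at 88.2, 77.7 and 76.4 adjusted CPM, and the part of their RNA in the AT2 values was not tested. Trp53 itself had 4.91 to 7.03 adjusted CPM and was not compared. Prkdc, the catalytic subunit of the kinase that AsiDNA engages, had 15.5 to 15.8.

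Cycling was rare. At least 1 of Mki67, Top2a, Cdk1, Birc5 and Ccnb1 was above 0 in 2, 1 and 4 AT2 cells, or 0.683%, 0.304% and 1.05%. At least 5 of 23 AT1 genes were above 0 in 88.1%, 85.7% and 76.6% of AT2 cells. For at least 5 of 31 transitional genes the shares were 89.4%, 85.1% and 76.1%. Krt8, a keratin of the transitional state, stood at 663, 777 and 550.5 adjusted CPM. Of the 20 transitional genes measured, 1 (Lgals3) was at least 2-fold higher in CONV than in CONV AsiDNA and 4 (Areg, Sprr1a, Anxa2 and Gdf15) lower, where 2.62% and 2.12% of all genes were. Against FLASH 4 were higher (Lgals3, Ccn1, Anxa1 and Clu) and 2 lower (Anxa2 and Gdf15), where 4.19% and 1.72% of all genes were.

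Secretory stress genes had 3 members of 23 at least 2-fold higher in CONV in both comparisons and 0 lower, among the unfolded protein response genes. Of all genes 2.62% and 4.19% were higher, and the list medians of 0.025 and 0.13 lay close to those of all genes. Herpud1, which acts in degradation of misfolded proteins, stood at 706, 294 and 329 adjusted CPM, and Ppp1r15a, which restores translation, at 117.5, 40.97 and 48.6. Sod2, the mitochondrial superoxide dismutase, stood at 312, 142 and 146, as 1 of 24 measured antioxidant genes, of which 4 were higher and 0 lower against CONV AsiDNA, and 2 higher (Sod2 and Txnip) and 2 lower (Srxn1 and Txn1) against FLASH. The shares of all genes were 2.62% and 2.12%, then 4.19% and 1.72%.

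Of 13 measured clock genes 4 were at least 2-fold higher in CONV against CONV AsiDNA and 3 against FLASH, where 2.62% and 4.19% of all genes were. The median log2 ratio of the list against CONV AsiDNA was 0.49, but turned to -0.11 with a minimum mean of 50 adjusted CPM, which leaves out Per1 and Tef, and was 0.024 among AT2-enriched genes. Per1, a core repressor, stood at 85.1, 36.6 and 25.1 adjusted CPM and Tef, a clock output factor, at 33.8, 4.41 and 2.73, while Nr1d1, a clock repressor, stood at 108, 122 and 93.4. Tef reached the minimum mean of 10 adjusted CPM only through its CONV value, so its call rests in part on the filter. The labels do not say at what hour lungs were taken. Of 24 measured immediate early and dissociation genes 4 (Fosl2, Nr4a1, Klf2 and Klf6) were at least 2-fold higher in CONV than in CONV AsiDNA and 1 (Hspa1b) lower, and against FLASH 5 (Fosl2, Egr1, Nr4a1, Klf2 and Klf4) were higher and 0 lower, where 2.62% and 2.12%, then 4.19% and 1.72% of all genes were. Egr1, an immediate early factor that did not pass 2-fold against CONV AsiDNA, stood at 1383, 691 and 457 adjusted CPM, while Fos, which passed in neither, stood at 2949, 2428 and 2485. The part of dissociation in these values was not tested.

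**Figure D4:**
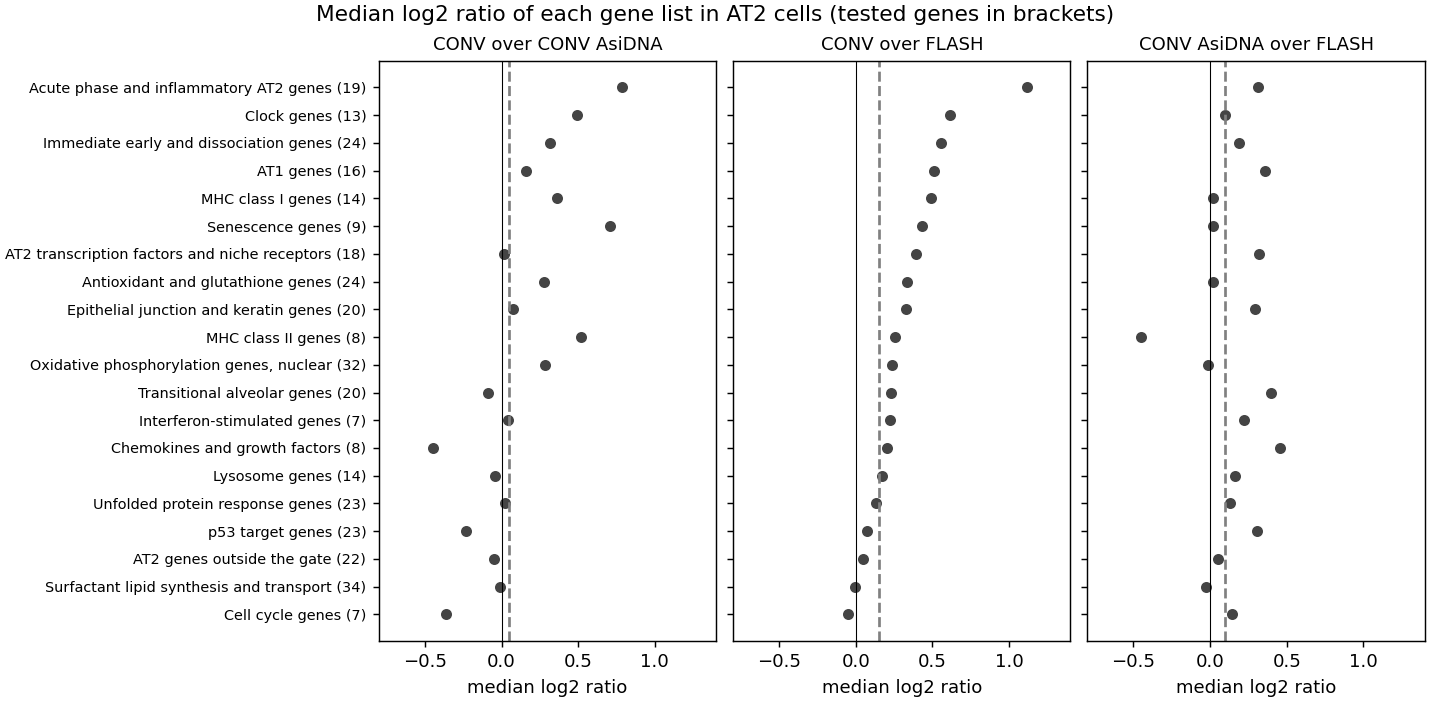
Median log2 ratio of the measured genes of 20 lists in AT2 cells, with the number of genes in brackets, for the 3 pairs of libraries. The dashed line is the median of all genes, and the acute phase list lies farthest right in both comparisons of CONV, at 0.79 and 1.12. With gates of at least 5 or 6 genes class II lay farther right against CONV AsiDNA, at 0.791 and 0.785. The acute phase medians there were 0.787 and 0.777.

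The CONV AsiDNA library had few genes of its own. Ptgs2, the inducible cyclooxygenase, stood at 47.8, 357 and 164 adjusted CPM, and was above 0 in 8.53%, 36.8% and 19.9% of AT2 cells. Thbs1, thrombospondin, stood at 80.9, 180 and 62.3. These were 2 of the 5 genes farthest above both other libraries, and the smaller log2 ratio of the 5 (with Kcnq1ot1, Hist1h2bc and Lars2) ran from 0.84 to 1.08. H2-Ab1, a chain of major histocompatibility class II, was lowest there at 620, 154 and 451 adjusted CPM, and H2-DMa, which loads peptide on class II, at 69.6, 0.630 and 38.2. Cd74, the class II invariant chain, stood at 5382, 3962 and 4120. Of 8 measured class II genes, H2-Ab1 and H2-DMa alone passed 2-fold against either other library, both lower in CONV AsiDNA, where 2.62% of all genes were higher in CONV than in CONV AsiDNA and 0.241% lower in CONV AsiDNA than in FLASH. The other genes farthest below were Fau, H2afz, Gpx1 and Cecr2, by 0.74 to 1.30 on the log2 scale for the smaller ratio. All other cells held H2-Ab1 at 2015, 2374 and 1853 adjusted CPM, again highest where the AT2 value was lowest, and the part of their RNA in the AT2 values was not tested. In FLASH, Klf4, a differentiation factor, stood at 132, 85.1 and 16.9 adjusted CPM, Ccn1, a matricellular protein, at 120, 92.0 and 12.6, and Anxa1, an anti-inflammatory annexin, at 319, 257 and 100.

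Mitochondrial and ribosomal RNA also differed between the libraries. Beside the shares in AT2 cells given above, the median mitochondrial share of all other cells was 0.595%, 0.150% and 1.23%. mt-Co1 stood at 3757, 8507 and 12518 adjusted CPM in AT2 cells and at 2470.2, 1163 and 3186 in all other cells, where CONV lay above CONV AsiDNA. The AT1 gate had the order of AT2 cells, at 509, 1976 and 5336. mt-Co2 stood at 9.85, 2162 and 5386 adjusted CPM and mt-Atp6 at 24.6, 2165.6 and 5582. mt-Co3 and the iron store gene Ftl1 and the apolipoprotein Apoe, the 3 of 7 such genes with the highest shares, were listed at 0 in the AT2 cells of CONV and above 0 in 84.5%, 52.0% and 36.7% of those of FLASH. In all other cells Ftl1 stood at 4196, 2479 and 2586 adjusted CPM and Apoe at 2726, 1572 and 1665, both highest in CONV, and the part of their RNA in the AT2 values was not tested. Sec61a1 and Alas1 were listed at 0 in FLASH and reached 27.4% of CONV AsiDNA cells and 27.3% of CONV cells. Gm42418, a locus that overlaps ribosomal RNA, stood at 14151, 21911 and 153, and in all other cells at 23774, 22378 and 1919. B2m, a gene that nearly all cells use, was above 0 in 5.80%, 27.96% and 19.7% of AT2 cells and stood at 2774, 2171 and 1963 adjusted CPM in all other cells.

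Some pairs of genes varied together among the AT2 cells of a library. Across cells Lcn2 and Itih4 had Pearson's r of 0.49, 0.51 and 0.50 on log values. The total of a cell is shared by both values, with r for Lcn2 and the total of 0.34, 0.51 and 0.50, and cells are not replicates. Lcn2 and Hp had r of 0.14, 0.42 and 0.39, and Itih4 and Hp had -0.06, 0.34 and 0.28, so in CONV these acute phase genes did not all vary together. Lcn2 with the lipid gene Scd1 had r of 0.37, 0.55 and 0.44. Cd74 and H2-Aa, both of class II, had 0.70, 0.61 and 0.68. Fabp5 and Scd1 had 0.05, 0.54 and 0.51. The most uneven genes relative to their mean were Lyz1 and Retnla, and Retnla in CONV came from 0.341% of cells.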

How the data were processed

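Lungs were dissociated with dispase and elastase and libraries made with a droplet 3′ kit. Per the labels, the submitters' processing notes name Cell Ranger 6.0.0 and build mm10. The deposited values are natural log values, ln(1 + x), where x is a whole number to within rounding in all 3 tables. The study's methods name a count matrix analysed with Seurat in R and refer to earlier work for the rest, so how the authors adjusted the counts behind these values is not described further here, and whether background RNA was removed was not tested. The values were converted back and summed over AT2 cells per library, and log2 ratios were taken with a prior of 10. A gene was called at 2-fold. Intervals are exact Clopper-Pearson at 95% and cover the sampling of cells only. Totals per library ran from 23383510 to 26417388 adjusted counts.

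Cells were gated on named genes, without clustering, and no doublet caller was run. The members and gene lists were chosen with earlier results of these data known. List medians and calls beside those of all genes are thus a description and no support by themselves. Named genes were list members with the highest levels or past 2-fold, the 5 genes farthest above and below both other libraries with a mean of at least 50 adjusted CPM, the genes listed at 0 in a library and present in 25% of cells of another, the 10 highest genes, and Hp, Pla1a, Nr1d1, Cdkn1a, Trp53 and Prkdc. Pla1a was listed at 0 in the AT2 cells of each library. Gene positions came from GENCODE (GRCm38). The log2 ratios were tested on simulated Poisson counts from a profile shared by all libraries, with known fold changes placed in CONV. These counts held no spread between mice and no background RNA, so the test does not bear on either. The series also holds 4 tables of another experiment, with 12 columns of per-sample values and the authors' own fold changes and p-values, not used here. Python 3.11.15, numpy 2.4.6, scipy 1.17.1, pandas 2.3.3 and matplotlib 3.10.9 were used.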

Additional observations from a re-analysis of the deposited data

How the results depend on the processing

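No paired analysis was possible because each condition had 1 library. Changing the gate to at least 3, 5 or 6 genes, dropping the exclusion genes or adding 9 kept each AT2 share within its interval. With only cells without a Ptprc value in the denominator the shares were 14.3%, 14.5% and 18.3%. The numbers of genes past 2-fold depended most on the prior and the minimum level. In the order higher and lower for CONV over CONV AsiDNA, CONV over FLASH and CONV AsiDNA over FLASH, they were 351, 278, 548, 227, 176 and 50 with a prior of 1, 41, 32, 58, 27, 7 and 5 with a prior of 50, and 71, 66, 115, 57, 11 and 5 with a minimum mean of 50 adjusted CPM. Among genes higher in AT2 than other cells, an alternative added after seeing the data, they were 92, 84, 153, 65, 12 and 5, with fewer genes tested. Centring on the median gave 163 higher and 168 lower in CONV over FLASH. A total without gate genes, mitochondrial genes, Gm42418 and AY036118 gave 208 lower in CONV over CONV AsiDNA, 191 lower in CONV over FLASH, and 50 higher and 24 lower in CONV AsiDNA over FLASH.

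List medians moved by over 0.25 in few cases. With a prior of 50 the acute phase median was 0.46 against CONV AsiDNA and 0.87 against FLASH, the chemokine median -0.16 against CONV AsiDNA and, for that library over FLASH, 0.20, the senescence median 0.29 against CONV AsiDNA and the clock median 0.30 against FLASH. With a minimum mean of 50 the clock median turned to -0.11 against CONV AsiDNA and was 0.19 against FLASH, the senescence medians were 0.010 and 0.10, and the p53 median was 0.53 for CONV over FLASH. Without a minimum the senescence median was 0.18 and the cell cycle median -0.028 for the first pair and -0.11 for CONV AsiDNA over FLASH. The class II median for CONV over CONV AsiDNA was 0.79 with a gate of 5 or 6 genes. Among AT2-enriched genes the senescence median was 0.24 and the clock median 0.024 against CONV AsiDNA, and the cell cycle median -0.34 for CONV over FLASH. Those lists held from 7 (cell cycle) to 23 (p53 targets) measured genes, and the cause was not tested. No named gene past 2-fold changed direction under the alternatives run, and leaving out the AT2 cells with Cyp2f2 moved no count by over 1.5 times. Thinning each AT2 cell to 1000 adjusted counts lowered 96 shares of cells above 0 past their interval and left 18 within it. Of the named genes, 22 values crossed the 2-fold line under an alternative.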
